A study of Mus musculus with 7 samples.

Results

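The genes described here are 47 genes of DNA replication and of the passage from G1 into S phase, taken by symbol from the 38472 genes of an RNA sequencing table of mouse lung endothelial cells (MLEC). All 47 symbols had a row in the table. MLEC were captured from lung by PECAM-1 beads, expanded in culture, purified once more by ICAM-2 beads and used as confluent monolayers of low passage. Poly(A) RNA was sequenced in 3 libraries of AM EC-KO cells, labelled b, d and g, and in 4 libraries of WT cells, labelled a, c, e and f. The AM EC-KO genotype joins a floxed *Adm* gene, which encodes the peptide adrenomedullin, with Cre recombinase driven by the promoter of *Cdh5*, the gene of VE-cadherin. WT is given as wild type, and whether its mice carried the floxed allele or Cre is not given in the sources used here. Both genotypes are on the C57BL/6 background, and the comparison asks what the loss of endothelial *Adm* changes in these cells. Cells of both genotypes grew in the same medium with fetal calf serum and endothelial growth supplement. The lungs of 3 mice were combined for an isolation, and neither the labels nor the methods tie a library to an isolation, so p-values measure only how far these libraries spread, some of which may be technical.

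A cell prepares for replication in G1 by loading the MCM helicase on origins, a step called licensing that needs the origin recognition complex, *Cdc6* and *Cdt1*. At the start of S phase the cyclin E kinase *Cdk2* and other kinases turn the loaded MCM rings into active helicases by adding *Cdc45* and the GINS complex, and polymerases then copy the unwound strands behind a sliding clamp, PCNA. Entry into S phase is gated by D-type cyclins with *Cdk4* or *Cdk6*, which inactivate the pocket proteins and so release E2F factors, the activators of many replication genes. Endothelium of the adult lung divides little, whereas endothelial cells in growth medium cycle until they become confluent.

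The deposited values are FPKM, the reads of a gene scaled to the length of its transcript and to the mapped reads of the library. Low FPKM values rise in steps of 1 read, and from these steps 6.82 to 8.16 M mapped reads were estimated per library, so that 1 FPKM in a transcript of 2 kb stood for 13.6 to 16.3 reads. *Adm* was at 9.31, 17.2 and 0.75 FPKM in libraries b, d and g of AM EC-KO, against 48.2, 70.1, 76.1 and 43.8 FPKM in libraries a, c, e and f of WT. It was lower in every AM EC-KO library than in any WT library (exact two-sided permutation p = 0.057, the smallest that 3 against 4 libraries allow), and its adjusted p in limma was 0.954. The summed level of 16 vascular endothelial markers was 3499 to 4028 FPKM in AM EC-KO and 3800 to 4268 FPKM in WT libraries. The leukocyte marker *Ptprc* and the myeloid marker *Itgam* are listed at 0 in all libraries, but other myeloid genes are not, and the summed level of 9 myeloid markers with values was 55.6 to 246 FPKM in AM EC-KO (highest in d) and 51.5 to 136 FPKM in WT libraries (highest in c). The summed level of 10 fibroblast markers was 326 to 386 FPKM in AM EC-KO and 268 to 598 FPKM in WT libraries. A single gene, *Thy1*, made up most of this sum in every library except WT e, and its levels are given with the marker lists below. WT e stood apart, with the highest fibroblast sum, 227 FPKM of the fibroblast proteoglycan gene *Dcn* against at most 8.47 FPKM elsewhere, and the highest value of 32.1% of the 12520 tested genes above 0 in every library. In each library 190 to 247 tested genes are listed at 0 although their median elsewhere was at least 5 FPKM, so an exact 0 can be a failed estimate.

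Promoter sequence is shown first, because members of this group are textbook targets of E2F factors. The RefSeq promoter table (GRCm38.p6) matched 37 of the 47 genes with 44 windows. The 250 bases before each RefSeq transcription start were searched on both strands for the E2F octamers TTTCCCGC, TTTCGCGC, TTTGCCGC and TTTGGCGC. Matches on opposite strands can overlap by 4 letters. An octamer was found in 11 of the 44 windows (25%), from 11 genes, against 1.86% of 32851 windows of all genes and 3.17% of 11649 windows of tested genes. The letters CCAAT or their reverse complement were in 59.1% of the members' windows, against 33.8% of all windows and 35.2% of those of tested genes. The median GC content was 61% in the members' windows, 52.4% in all windows and 59.6% in those of tested genes. The genes with an octamer were *Orc1*, *Cdc6*, *Mcm5*, *Mcm6*, *Mcm7*, *Gins3*, *Rfc3*, *Pola1*, *Rbl1*, *Uhrf1* and *Cdk2*. *Mcm4*, *Gins1*, *Gins2*, *Gins4*, *Rfc2*, *Pole*, *Rb1*, *Ccne2*, *Ccnd1* and *Ccnd2* were not matched. RefSeq starts can differ from the start of the annotated gene (GENCODE). All windows of *Cdc6*, *Mcm7*, *E2f1* and *Cdk6* lie within the annotated gene, as does the *Uhrf1* window with the octamer. The octamers of *Orc1*, *Gins3* and *Rfc3* also lie within the annotated gene, in windows that reach beyond its start. For *Cdc6*, *Mcm7*, *E2f1* and *Cdk6* the bases before the annotated start were thus not searched. A match of letters is a description of the sequence and not evidence of binding.

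The windows below are those of *Mcm5* (chr8:75109259-75109508, plus strand) and *Mcm6* (chr1:128359706-128359955, minus strand), which held more matches than any other member, and of *Orc1* (chr4:108579204-108579453, plus strand), *Rbl1* (chr2:157204535-157204784, minus strand) and *Rfc3* (chr5:151651209-151651458, minus strand), which held the matches closest to the start, and they show what such matches look like. Each is written 5′ to 3′ in the direction of transcription and ends at the base before the RefSeq start, with the octamers in capitals. In *Mcm5* the 2 matches begin 153 and 149 bases before the start and overlap. In *Mcm6* the 3 matches begin 110, 106 and 47 bases before it, and the first and second overlap. The match in *Orc1* begins 27 bases, that in *Rbl1* 18 bases and that in *Rfc3* 10 bases before the start.
Mcm5: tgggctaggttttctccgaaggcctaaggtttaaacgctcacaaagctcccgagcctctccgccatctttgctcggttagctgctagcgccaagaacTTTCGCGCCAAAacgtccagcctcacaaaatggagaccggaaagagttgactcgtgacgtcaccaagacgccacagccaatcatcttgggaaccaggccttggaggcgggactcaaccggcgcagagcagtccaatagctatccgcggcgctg
Mcm6: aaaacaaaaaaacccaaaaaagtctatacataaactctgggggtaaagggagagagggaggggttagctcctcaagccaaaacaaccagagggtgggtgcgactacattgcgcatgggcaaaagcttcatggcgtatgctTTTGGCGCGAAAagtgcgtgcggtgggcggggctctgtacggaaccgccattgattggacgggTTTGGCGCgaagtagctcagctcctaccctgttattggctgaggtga
Orc1: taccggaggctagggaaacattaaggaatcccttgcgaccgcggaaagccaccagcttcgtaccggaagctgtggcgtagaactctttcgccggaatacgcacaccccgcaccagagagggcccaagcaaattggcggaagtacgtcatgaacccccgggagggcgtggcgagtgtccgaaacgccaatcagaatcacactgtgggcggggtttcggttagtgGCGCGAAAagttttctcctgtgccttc
Rbl1: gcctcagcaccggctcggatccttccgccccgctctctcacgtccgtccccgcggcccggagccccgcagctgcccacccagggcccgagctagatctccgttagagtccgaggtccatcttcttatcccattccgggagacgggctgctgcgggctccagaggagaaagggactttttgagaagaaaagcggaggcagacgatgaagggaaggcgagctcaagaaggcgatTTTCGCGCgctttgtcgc
Rfc3: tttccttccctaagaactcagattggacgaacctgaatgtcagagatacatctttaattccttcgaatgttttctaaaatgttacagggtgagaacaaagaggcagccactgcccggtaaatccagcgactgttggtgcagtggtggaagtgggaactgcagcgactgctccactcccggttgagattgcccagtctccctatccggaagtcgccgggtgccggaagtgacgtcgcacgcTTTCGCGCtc

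Most replication and G1/S genes were measured above 0 in every library, and no tested member passed the test between AM EC-KO and WT MLEC. Library values were given for 45 of the 47 genes, and 39 of these were above 0 in all 7 libraries. *Cdt1*, the licensing factor that loads MCM with *Cdc6*, and *Gins2*, a GINS subunit, have no library values and are not compared. *Lig1*, the ligase that joins Okazaki fragments, is listed at 0 in all 7 libraries, while the authors' deposited group value, computed over the libraries of a genotype together, was 14.4 FPKM in AM EC-KO and 14.9 FPKM in WT. A further 5 genes, *Mcm7*, *Fen1*, *Tk1*, *Uhrf1* and *Ccne2*, are listed at 0 in some libraries. The test took 43 members, which had a mean of at least 0.1 FPKM and were above 0 in at least 3 libraries. Their mean over the libraries was at least 10 FPKM for 24 genes, between 1 and 10 FPKM for 18 genes and below 1 FPKM for *E2f2*. The median of these means was 12.5 FPKM, against 7.89 FPKM for all 15604 tested genes.

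**Figure D1:**
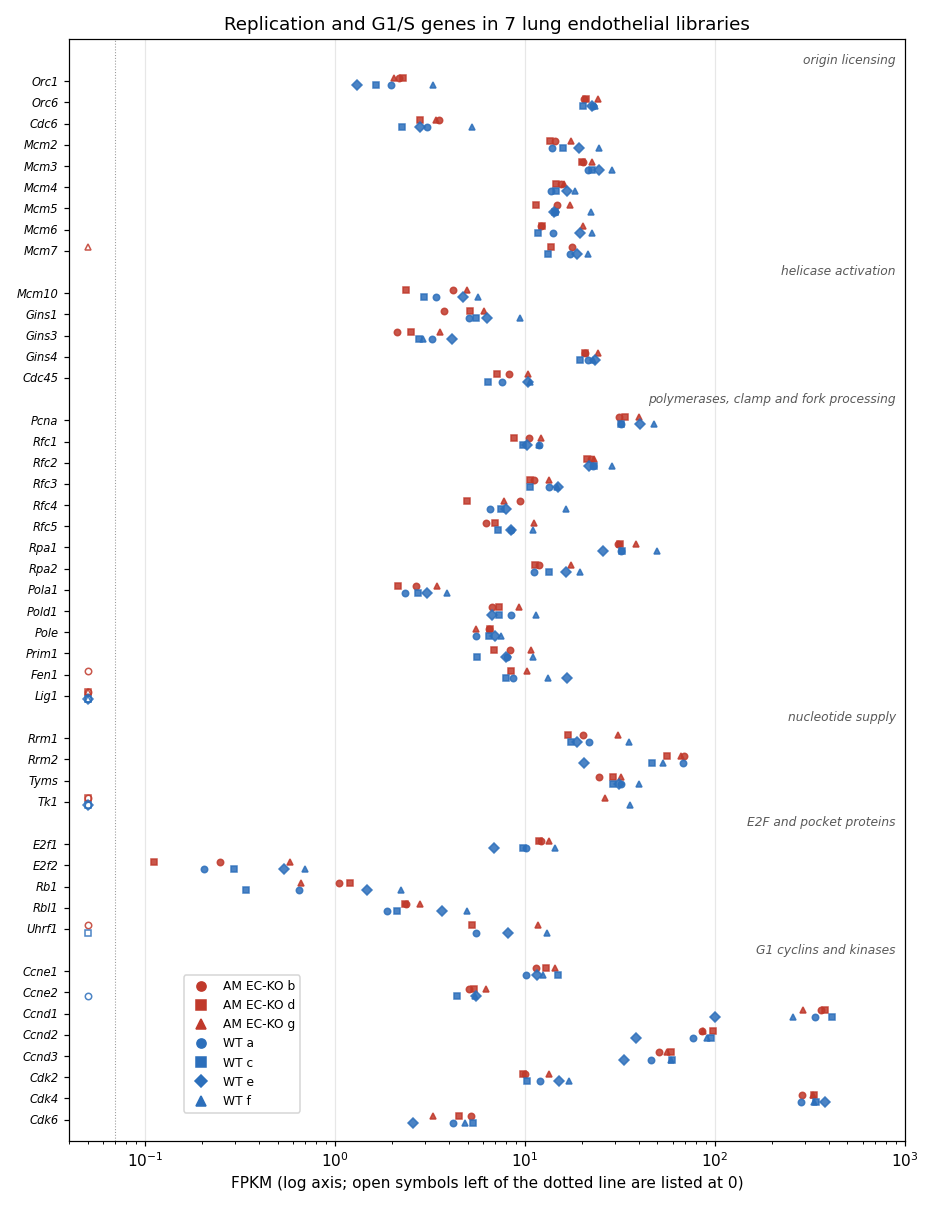
FPKM (log axis) of the 45 members with library values in 3 AM EC-KO libraries (red) and 4 WT libraries (blue), 1 symbol per library, grouped by role. Open symbols left of the dotted line are values listed at 0. The levels run over more than 3 orders of magnitude between genes, and red and blue symbols overlap in every row.

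Between the genotypes, 0 of the 43 tested members passed FDR 0.1 in limma on log2(FPKM + 1), against 0.0641% of all tested genes (10 of 15604, 0.032% in each direction). At an unadjusted p under 0.05 the count was again 0 of 43, against 3.07% of all tested genes (1.65% higher and 1.42% lower), and 0 members had genotypes that did not overlap, against 5.13% of all tested genes (2.91% higher and 2.22% lower). The smallest exact permutation p of a member was 0.114, for *Mcm3*. The log2 fold change of AM EC-KO over WT was below 0 for 31 of 43 members (72.1%), against 51.8% of all tested genes, and its median was −0.09, against −0.01 for all tested genes. Many members were high in the same libraries, as given below, so the 31 are not 31 separate observations. Without WT f the fold change was below 0 for 20 members and above 0 for 23, and the median was 0.007. Within libraries a to d (2 of each genotype) the median was −0.02, and within e to g (AM EC-KO g against WT e and f) it was −0.04. The 95% interval of the fold change lay within ±0.5 on the log2 scale for 9 members and within ±1 for 35. Differences inside a member's interval are not excluded by these libraries. In bulk RNA, fewer cells in S phase and less RNA of these genes per cell cannot be told apart.

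**Figure D2:**
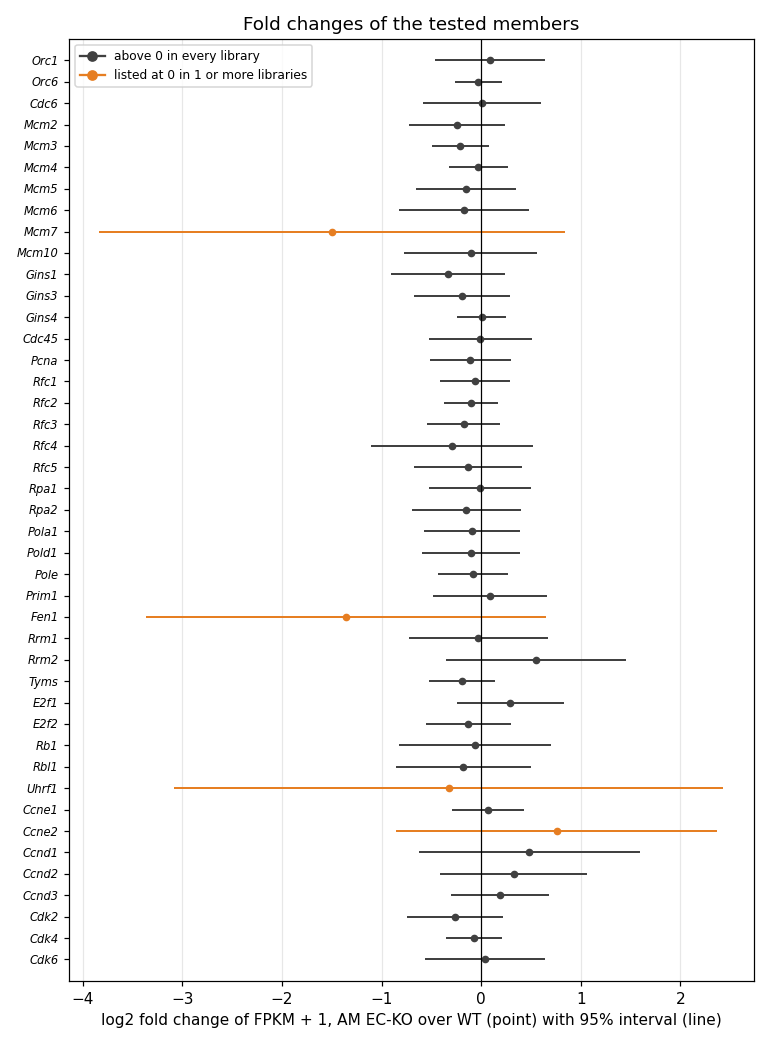
Log2 fold change of FPKM + 1, AM EC-KO over WT (points), with the 95% interval of limma (lines) for the 43 tested members in the order of their roles. Every interval includes 0, and the widest belong to the 4 genes listed at 0 in 1 or more libraries (orange).

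Origin licensing was represented by 10 genes, of which 9 were tested. Their log2 fold change was above 0 for 2 and below 0 for 7, with a median of −0.16. *Orc1*, the largest subunit of the origin recognition complex, was at 2.17, 2.30 and 2.06 FPKM in libraries b, d and g of AM EC-KO, against 1.98, 1.66, 1.32 and 3.29 FPKM in libraries a, c, e and f of WT. *Orc6*, the smallest subunit, was at 21.9 ± 1.99 FPKM in AM EC-KO (SD, n = 3 libraries) and 22.3 ± 1.43 FPKM in WT (SD, n = 4 libraries). *Orc6* varied least of the 39 members above 0 in every library, with an SD of 0.10 on the log2 scale over the 7 libraries. *Cdc6*, the ATPase that brings MCM to the origin, was at 3.26 ± 0.406 FPKM in AM EC-KO and 3.36 ± 1.32 FPKM in WT, with its highest value, 5.27 FPKM, in WT f. *Orc1* and *Cdc6* were thus low in all libraries and, like the MCM genes, highest in WT f.

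*Mcm3*, a subunit of the MCM ring and the licensing gene with the highest mean FPKM, lies on chromosome 1 from 20802968 to 20820312 (minus strand, GRCm38). It was at 20.2, 20.1 and 22.5 FPKM in libraries b, d and g of AM EC-KO, against 21.5, 22.6, 24.7 and 29.0 FPKM in libraries a, c, e and f of WT. AM EC-KO g lay above WT a, so the genotypes overlapped. Its log2 fold change was −0.21 (SE 0.12, 95% interval −0.49 to 0.07, adjusted p = 0.954 in limma). Its unadjusted p was the smallest among the members (0.121), and the sign was the same under each alternative setting tried.

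*Mcm7*, another subunit of the ring, had 17.8 FPKM in AM EC-KO b and 13.8 FPKM in AM EC-KO d but is listed at 0 in AM EC-KO g. In WT a, c, e and f it was at 17.2, 13.3, 18.9 and 21.5 FPKM. The other 5 subunits of the ring were at 16.1 to 22.5 FPKM in AM EC-KO g. Its log2 fold change of −1.499 (SE 0.98, adjusted p = 0.954) rests on that 0, and it was 0.050 within libraries a to d. The authors' deposited group values for *Mcm7* were 14.3 FPKM in AM EC-KO and 14.3 FPKM in WT.

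The MCM ring holds its 6 subunits in equal number, and their mRNA levels per length were close to each other. Over *Mcm2* to *Mcm6*, the highest subunit was 1.40 to 1.92 times the lowest within a library. *Mcm3* gave 24.0 to 28.5% of the summed FPKM of these 5 genes, *Mcm2* 17.9 to 20.9%, *Mcm4* 15.7 to 20.2%, *Mcm5* 15.1 to 19.2% and *Mcm6* 14.9 to 21.6%. The share of *Mcm3* was 26.0 ± 1.94% in AM EC-KO and 26.8 ± 1.65% in WT, a difference below the SD. The sum itself was 77.2, 72.1 and 93.8 FPKM in libraries b, d and g of AM EC-KO, against 77.7, 79.5, 94.4 and 117 FPKM in libraries a, c, e and f of WT. The shares therefore varied less between libraries than the sum, which was highest in WT f and lowest in AM EC-KO d.

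*Mcm5* and *Mcm6* are the subunits whose promoter windows are printed above. *Mcm5* was at 14.8, 11.4 and 17.4 FPKM in libraries b, d and g of AM EC-KO, against 14.4, 14.5, 14.3 and 22.4 FPKM in libraries a, c, e and f of WT. *Mcm6* was at 12.2, 12.4 and 20.3 FPKM in the AM EC-KO libraries, against 14.2, 11.8, 19.6 and 22.7 FPKM in WT. The values of *Mcm6* formed a low set in b, d, a and c and a high set in g, e and f, with both genotypes in each. *Mcm2* was at 15.2 ± 2.07 FPKM in AM EC-KO and 18.4 ± 4.65 FPKM in WT, and *Mcm4* at 15.4 ± 0.782 and 15.9 ± 2.07 FPKM in AM EC-KO and WT.

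**Figure D3:**
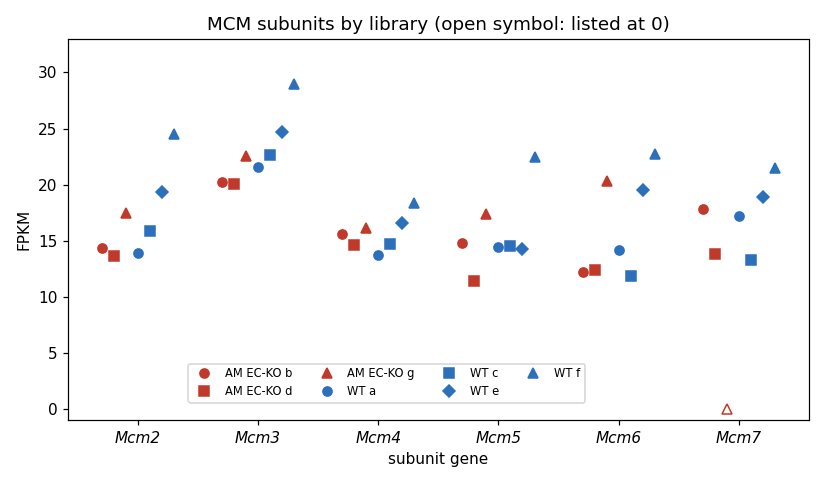
FPKM (linear axis) of the MCM subunit genes *Mcm2* to *Mcm7* in 3 AM EC-KO libraries (red) and 4 WT libraries (blue), 1 symbol per library. WT f (blue triangles) is highest for all 6 genes, and *Mcm7* is listed at 0 in AM EC-KO g (open triangle).

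Helicase activation was represented by 6 genes, of which 5 were tested. Their log2 fold change was above 0 for 1 and below 0 for 4, with a median of −0.11. *Gins4*, a subunit of the GINS complex that links the helicase to the polymerase, had the highest level of the group, with 20.7, 20.8 and 24.3 FPKM in libraries b, d and g of AM EC-KO, against 21.6, 19.6, 23.4 and 22.9 FPKM in libraries a, c, e and f of WT. Its log2 fold change was 0.00 (SE 0.10, 95% interval −0.23 to 0.24), the narrowest interval of the group. *Gins1*, another GINS subunit, was at 3.77, 5.13 and 6.07 FPKM in the AM EC-KO libraries, against 5.12, 5.55, 6.34 and 9.39 FPKM in WT. AM EC-KO d and g lay within the range of WT and AM EC-KO b below it, and the log2 fold change was −0.33 (SE 0.24, adjusted p = 0.954).

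*Gins3*, also a GINS subunit, was at 2.13, 2.53 and 3.59 FPKM in libraries b, d and g of AM EC-KO, against 3.26, 2.77, 4.15 and 2.91 FPKM in libraries a, c, e and f of WT. Its log2 fold change was −0.20 (SE 0.20, adjusted p = 0.954). *Gins4* mRNA was 4.01 to 5.49 times that of *Gins1* in AM EC-KO and 2.44 to 4.22 times in WT, per length, although the complex holds its subunits in equal number. *Cdc45*, the third part of the active helicase, was at 8.61 ± 1.65 FPKM in AM EC-KO and 8.76 ± 2.11 FPKM in WT. *Mcm10*, which helps the helicase to start, was at 4.18, 2.37 and 4.996 FPKM in the AM EC-KO libraries, against 3.41, 2.94, 4.71 and 5.70 FPKM in WT. The range of *Mcm10* within either genotype was wider than the difference between the means.

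Polymerases, the clamp and fork processing were represented by 14 genes, of which 13 were tested. In this group 1 gene had a log2 fold change above 0 and 12 below 0, with a median of −0.11, and 0 of 13 passed the test. *Pcna*, which encodes the sliding clamp and is a common marker of S phase, lies on chromosome 2 from 132249162 to 132253314 (minus strand). It was at 31.3, 33.7 and 39.8 FPKM in libraries b, d and g of AM EC-KO, against 32.1, 32.0, 40.4 and 48.2 FPKM in libraries a, c, e and f of WT. The genotypes overlapped over most of their range, with a log2 fold change of −0.11 (SE 0.17, 95% interval −0.51 to 0.29). Without WT f it was 0.0052, and within libraries a to d it was 0.018.

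*Rfc3*, a subunit of the clamp loader RFC, was at 11.1, 10.6 and 13.5 FPKM in libraries b, d and g of AM EC-KO, against 13.4, 10.6, 14.9 and 14.7 FPKM in libraries a, c, e and f of WT (log2 fold change −0.17, SE 0.15, adjusted p = 0.954). Of the other loader subunits, *Rfc1* was at 10.5 ± 1.74 FPKM in AM EC-KO and 10.97 ± 1.11 FPKM in WT, and *Rfc2* at 22.3 ± 0.887 and 24.2 ± 3.11 FPKM in AM EC-KO and WT. *Rfc4* was at 9.42, 4.96 and 7.76 FPKM in the AM EC-KO libraries, against 6.56, 7.499, 7.97 and 16.5 FPKM in WT. WT f was far above the other WT libraries for *Rfc4*, and *Rfc2* was highest there as well. *Rfc5* was highest in AM EC-KO g, at 11.2 FPKM, with 11.03 FPKM in WT f.

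*Fen1*, the nuclease that trims the flaps of Okazaki fragments, is listed at 0 in AM EC-KO b, with 8.5004 FPKM in AM EC-KO d and 10.3 FPKM in AM EC-KO g, against 8.66, 7.95, 16.7 and 13.3 FPKM in libraries a, c, e and f of WT. Its log2 fold change of −1.36 (SE 0.84, adjusted p = 0.954) was −0.23 without AM EC-KO b. *Rpa1*, the large subunit of the single-strand binding protein RPA, was at 33.8 ± 4.06 FPKM in AM EC-KO and 35.03 ± 10.1 FPKM in WT, and *Rpa2* at 13.6 ± 3.36 and 15.2 ± 3.70 FPKM in AM EC-KO and WT. Both were highest in WT f.

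The catalytic subunits of the replicative polymerases had lower levels than the clamp. *Pola1*, of the polymerase that lays down primers, was at 2.76 ± 0.655 FPKM in AM EC-KO and 3.01 ± 0.651 FPKM in WT. *Pold1*, of the lagging-strand polymerase, was at 7.78 ± 1.38 FPKM in AM EC-KO and 8.504 ± 2.09 FPKM in WT, and *Pole*, of the leading-strand polymerase, at 6.19 ± 0.576 and 6.62 ± 0.826 FPKM in AM EC-KO and WT. *Prim1*, the primase, was the only tested gene of this group with a fold change above 0, at 8.70 ± 1.97 FPKM in AM EC-KO and 8.19 ± 2.26 FPKM in WT (log2 fold change 0.09, SE 0.24). None of these differences exceeded the SD of either genotype.

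Nucleotide supply was represented by 4 genes, of which 3 were tested, with a median log2 fold change of −0.03. *Rrm2*, the subunit of ribonucleotide reductase that limits the making of deoxynucleotides in S phase, lies on chromosome 12 from 24708241 to 24714146 (plus strand). It was at 69.1, 56.3 and 66.7 FPKM in libraries b, d and g of AM EC-KO, against 67.7, 46.7, 20.5 and 53.2 FPKM in libraries a, c, e and f of WT. WT e was far below every other library, and WT a lay among the AM EC-KO libraries. The log2 fold change of 0.55 (SE 0.38, 95% interval −0.34 to 1.44, adjusted p = 0.954) was the largest in size among members above 0 in every library, and it was 0.20 without WT e. *Rrm1*, the large subunit of the same enzyme, was at 20.4, 16.8 and 31.0 FPKM in the AM EC-KO libraries, against 21.8, 17.6, 18.9 and 35.2 FPKM in WT. WT e had no such low value of *Rrm1*, and the ratio of *Rrm1* to *Rrm2* was 0.923 there and 0.295 to 0.662 in the other libraries.

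*Tyms*, thymidylate synthase, was at 24.7, 29.2 and 32.1 FPKM in libraries b, d and g of AM EC-KO, against 32.0, 29.1, 31.3 and 39.8 FPKM in libraries a, c, e and f of WT. Its log2 fold change was −0.20 (SE 0.14, 95% interval −0.52 to 0.12, adjusted p = 0.954). *Tk1*, the thymidine kinase of S phase, was at 26.5 FPKM in AM EC-KO g and 35.8 FPKM in WT f and is listed at 0 in the other 5 libraries. Its authors' deposited group values were 20.9 FPKM in AM EC-KO and 23.7 FPKM in WT, and it was not tested.

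E2F factors, pocket proteins and *Uhrf1* made up 5 genes, all tested, and the median of their log2 fold changes was −0.13, with 1 above 0 and 4 below. *E2f1*, an activating E2F, was at 12.1, 11.8 and 13.5 FPKM in libraries b, d and g of AM EC-KO, against 10.1, 9.82, 6.87 and 14.5 FPKM in libraries a, c, e and f of WT. WT f had the highest and WT e the lowest value, and the log2 fold change was 0.29 (SE 0.22, 95% interval −0.24 to 0.82, adjusted p = 0.954). Without WT f it was 0.46, with an unadjusted p of 0.039 in limma and an adjusted p of 0.894.

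*E2f2*, the other activating E2F among the members, was below 1 FPKM in each library, at 0.25, 0.11 and 0.58 FPKM in libraries b, d and g of AM EC-KO and at 0.21, 0.29, 0.54 and 0.70 FPKM in libraries a, c, e and f of WT. It had the largest SD on the log2 scale of the members above 0 in every library (0.95), at a level of few reads. *Rbl1*, the pocket protein p107, was at 2.37, 2.35 and 2.82 FPKM in the AM EC-KO libraries, against 1.88, 2.13, 3.67 and 4.95 FPKM in WT. The levels of *Rbl1* in AM EC-KO libraries all lay within the range of WT.

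*Rb1*, the retinoblastoma protein and founding member of the pocket family, was at 1.05, 1.20 and 0.66 FPKM in libraries b, d and g of AM EC-KO, against 0.65, 0.34, 1.48 and 2.22 FPKM in libraries a, c, e and f of WT. Its authors' deposited group values were 8.33 FPKM in AM EC-KO and 8.59 FPKM in WT, 8.55 and 7.32 times the library means, whereas the median factor over genes was 1.13 and 1.09. The library values of *Rb1* are therefore uncertain in scale. *Uhrf1*, a chromatin protein that guides maintenance of DNA methylation in S phase, is listed at 0 in AM EC-KO b and WT c. Elsewhere it had 5.30 FPKM in AM EC-KO d and 11.7 FPKM in AM EC-KO g, against 5.57, 8.16 and 13.1 FPKM in WT a, e and f.

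The G1 cyclins and kinases included *Cdk4* and *Ccnd1*, the members with the highest FPKM. All 8 were tested, and the log2 fold change was above 0 for 6 and below 0 for 2, with a median of 0.13. *Cdk4*, the main catalytic partner of the D-type cyclins, lies on chromosome 10 from 127063534 to 127067920 (plus strand) and was at percentile 98.3 of tested genes by mean FPKM. It was at 287, 332 and 331 FPKM in libraries b, d and g of AM EC-KO, against 283, 341, 380 and 333 FPKM in libraries a, c, e and f of WT. The spread was small and the genotypes overlapped, with a log2 fold change of −0.07 (SE 0.11, 95% interval −0.34 to 0.20). *Cdk6*, the other partner of these cyclins, was at 4.33 ± 0.976 FPKM in AM EC-KO and 4.25 ± 1.22 FPKM in WT, and *Cdk4* was at 54.9 to 147 times the level of *Cdk6* per length within a library.

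*Ccnd1*, *Ccnd2* and *Ccnd3* encode the D-type cyclins, which respond to growth factors. *Ccnd1* was at 364, 380 and 293 FPKM in libraries b, d and g of AM EC-KO, against 337, 416, 100.1 and 258 FPKM in libraries a, c, e and f of WT. *Ccnd2* was at 85.6, 97.9 and 86.4 FPKM in the AM EC-KO libraries, against 76.8, 95.8, 38.8 and 90.9 FPKM in WT. *Ccnd3* was at 50.8, 58.7 and 55.8 FPKM in the AM EC-KO libraries, against 46.2, 59.4, 33.3 and 58.7 FPKM in WT. Each of the 3 genes was lowest in WT e, and the genotypes overlapped in the other libraries. WT e was also the lowest library for 26.3% of the 12520 tested genes above 0 in every library. The log2 fold changes were 0.48 (SE 0.46) for *Ccnd1*, 0.33 (SE 0.31) for *Ccnd2* and 0.19 (SE 0.20) for *Ccnd3*, with an adjusted p of 0.954 for each in limma. These genes, like *Rb1*, *Rbl1*, *Rfc4*, *Mcm10*, *Orc1* and *Rrm1* above, were chosen for their values.

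*Cdk2*, the kinase of the E-type cyclins, was at 10.03, 9.83 and 13.4 FPKM in libraries b, d and g of AM EC-KO, against 11.97, 10.3, 15.1 and 17.2 FPKM in libraries a, c, e and f of WT (log2 fold change −0.27, SE 0.20, adjusted p = 0.954). *Ccne1*, an E-type cyclin, was at 12.9 ± 1.45 FPKM in AM EC-KO and 12.3 ± 1.98 FPKM in WT. *Ccne2*, the other E-type cyclin, was at 5.12, 5.43 and 6.23 FPKM in the AM EC-KO libraries, against 4.41, 5.57 and 5.46 FPKM in WT c, e and f, with a listed 0 in WT a. *Ccne2* had a log2 fold change of 0.76 (SE 0.67, adjusted p = 0.954), and it was 0.10 without WT a. *Ccnd1* mRNA was 20.4 to 31.7 times that of *Ccne1* in AM EC-KO and 8.61 to 33.1 times in WT, per length, and the lowest ratio was that of WT e.

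Members also differed between the libraries of a genotype. Of the 39 members above 0 in every library, 26 had their highest value in WT f (66.7%), against 15.9% of the 12520 genes above 0 in every library. By role, this was so for 7 of 8 licensing genes, 3 of 5 helicase genes, 9 of 12 fork genes, 2 of 3 nucleotide genes, 4 of 4 E2F and pocket genes and 1 of 7 cyclins and kinases. The 4 E2F and pocket genes include *E2f2*, at a level of few reads, and *Rb1*, whose library values are uncertain in scale. The median deviation of the 39 genes from their own mean over the libraries, on the log2 scale, was −0.09, −0.16 and 0.13 in libraries b, d and g of AM EC-KO, against −0.08, −0.13, 0.04 and 0.40 in libraries a, c, e and f of WT. For all 12520 genes it lay between −0.02 and 0.05 in every library. WT f was thus the high library of its genotype and g that of AM EC-KO.

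WT f and AM EC-KO g were both above all of a, b, c and d for 23 of the 39 members (59.0%), against 22.0% of all genes above 0 in every library. Among the 25 genes of licensing, helicase and fork the count was 17 (68%). *Mcm6* and *Rrm1* are examples. Between the 2 libraries, WT f was higher than AM EC-KO g for 31 members and lower for 8. The median SD of these members on the log2 scale over the 7 libraries was 0.31, against 0.26 for all genes above 0 in every library. At the low end were *Orc6* (0.10) and *Gins4* (0.11), and at the high end *E2f2* (0.95), *Rb1* (0.89), *Ccnd1* (0.70) and *Rrm2* (0.62). Of these, *E2f2* was at a level of few reads, and the library values of *Rb1* are uncertain in scale. The counts and SDs are descriptions over 7 libraries. The libraries are not tied by the labels to a passage, a confluence or a sequencing run.

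**Figure D4:**
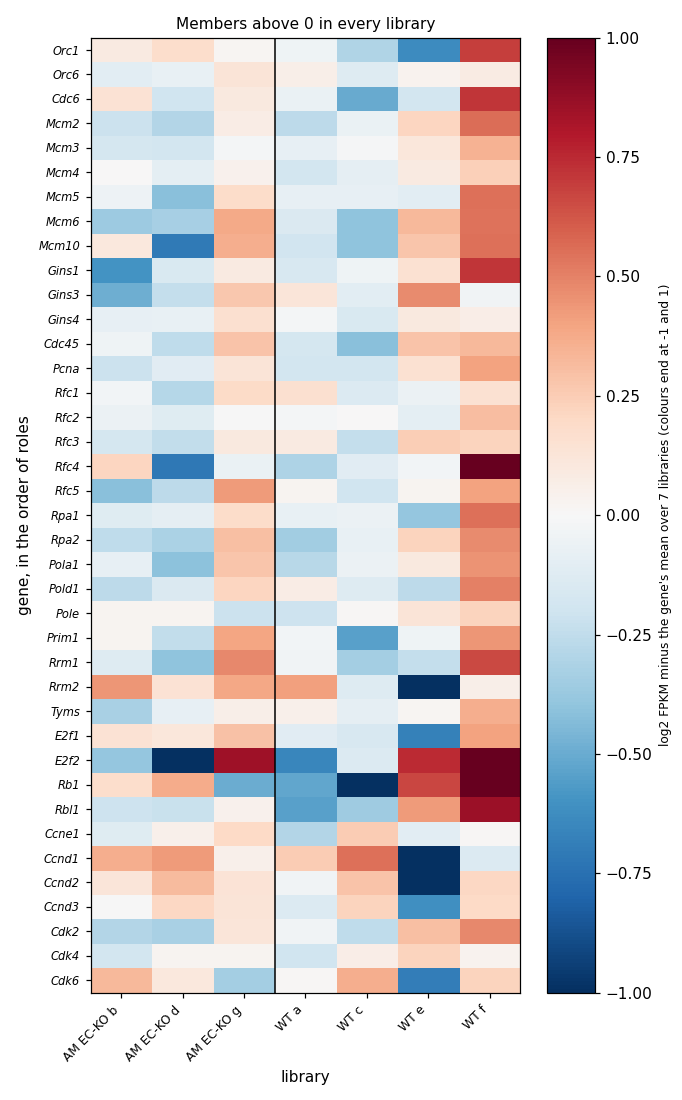
Deviation of log2 FPKM from the gene's mean over the 7 libraries (colour, ending at −1 and 1) for the 39 members above 0 in every library, with 3 AM EC-KO libraries left of the line and 4 WT libraries right of it. The WT f column is red for most genes, and the D-type cyclins, *Rrm2* and *E2f1* are blue in WT e.

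A list of genes of mitosis, the phase after S and G2, had its highest values in the same libraries. All 18 mitotic genes above 0 in every library were highest in WT f, and in all 18 WT f and AM EC-KO g were both above a to d. Their median deviation was −0.16, −0.44 and 0.55 in libraries b, d and g of AM EC-KO, against −0.15, −0.60, 0.08 and 0.85 in libraries a, c, e and f of WT. The D-type cyclins had medians of 0.12, 0.31 and 0.13 in AM EC-KO, against −0.04, 0.28, −1.02 and 0.20 in WT, so their only large deviation was in WT e. The fibroblast sum was highest in WT e (598 FPKM) and not in WT f (289 FPKM). The sum of 10 smooth muscle and pericyte markers was highest in WT f (806 FPKM). It was 533, 694 and 770 FPKM in libraries b, d and g of AM EC-KO and 358, 462 and 662 FPKM in WT a, c and e. These 10 markers include *Mcam*, which the authors place at the endothelial junction, so the sum is not a measure of other cell types alone. WT f and AM EC-KO g had the highest of these sums and also the highest mitotic medians. AM EC-KO d came next by sum, but its mitotic median was low. The part of fibroblasts, smooth muscle cells and pericytes in these values was not tested.

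**Figure D5:**
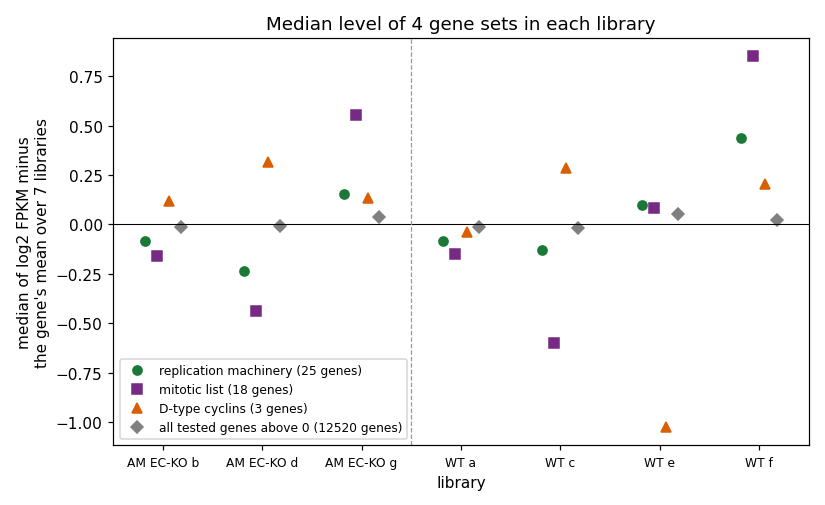
Median deviation of log2 FPKM from each gene's mean over the 7 libraries, per library, for 25 replication machinery genes, 18 mitotic genes, 3 D-type cyclins and all 12520 tested genes above 0 in every library, with AM EC-KO libraries left of the dashed line. The machinery and mitotic medians are highest in WT f (0.44 and 0.85) and second highest in AM EC-KO g (0.16 and 0.55), and the D-type cyclins are low in WT e (−1.02).

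All 11 genes with an E2F octamer in the promoter window were tested, and 0 passed FDR 0.1. Their log2 fold change was below 0 for 9 of these 11 genes and above 0 for 2, with a median of −0.17. Of all tested genes, 51.8% were below 0. The 9 include *Mcm7* and *Uhrf1*, which are listed at 0 in some libraries. In the 23 tested members with a window and no octamer in it, the median was −0.07, with 17 below 0 and 6 above. These 23 members include *Fen1*, which is listed at 0 in AM EC-KO b. They also include *E2f1* and *Cdk6*, for which the bases before the annotated start were not searched. WT f was the highest library for 7 of 9 genes with an octamer and for 14 of 22 without, counting genes above 0 in every library. Of the genes whose windows are printed, *Mcm5*, *Mcm6*, *Orc1* and *Rbl1* were highest in WT f and *Rfc3* in WT e.

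Other genes of these pathways were examined as lists, and in each list 0 genes passed FDR 0.1 and 0 had an unadjusted p under 0.05 (limma), in either direction. Of 15 further origin and helicase genes, 7 had a log2 fold change above 0 and 8 below, with a median of −0.05. *Orc3*, a subunit of the origin recognition complex, was at 19.0, 16.3 and 17.8 FPKM in libraries b, d and g of AM EC-KO, against 23.4, 16.5, 30.3 and 20.7 FPKM in libraries a, c, e and f of WT. *Mcm9*, an MCM relative with a role in DNA repair, had a log2 fold change of −0.19 (SE 0.17, adjusted p = 0.954). Of 19 tested polymerase and fork genes, 6 were above 0 and 13 below, with a median of −0.07. *Msh6*, a mismatch repair protein, was at 7.36, 5.99 and 7.63 FPKM in the AM EC-KO libraries, against 8.17, 7.69, 8.27 and 9.24 FPKM in WT. It was the only gene of these replication lists whose genotypes did not overlap (exact permutation p = 0.057, adjusted p = 0.954 in limma), at a background of 2.22% of tested genes lower without overlap. *Dscc1*, of an alternative clamp loader, is listed at 0 in AM EC-KO b and d and in WT e and was at most 1.84 FPKM.

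The nucleotide supply list had 9 tested genes, 4 above 0 and 5 below, with a median of −0.01. *Rrm2b*, the p53-inducible counterpart of *Rrm2*, is listed at 0 in AM EC-KO b and was at 3.71 to 5.05 FPKM in the other libraries. *Ctps*, CTP synthase, had a log2 fold change of −0.11 (SE 0.12). Of 10 genes of replication-coupled chromatin assembly, 1 was above 0 and 9 below, with a median of −0.19. *Slbp*, which binds histone mRNA, was at 16.8, 17.9 and 19.7 FPKM in the AM EC-KO libraries, against 21.1, 16.6, 29.3 and 26.6 FPKM in WT. *Asf1a*, a histone chaperone, had a log2 fold change of −0.21 (SE 0.16, adjusted p = 0.954).

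Of 15 tested further G1/S regulators, 3 were above 0 and 12 below, with a median log2 fold change of −0.09. *Myc*, a growth-promoting transcription factor, was at 53.7, 50.9 and 48.8 FPKM in libraries b, d and g of AM EC-KO, against 59.7, 52.2, 74.4 and 49.9 FPKM in libraries a, c, e and f of WT, and *E2f4*, a repressive E2F, had a log2 fold change of −0.11 (SE 0.09). Of 7 CDK inhibitors, 5 were above 0 and 2 below, with a median of 0.11. *Cdkn2a*, which encodes p16 and p19ARF and is known to accumulate in culture, was at 148, 185 and 119 FPKM in the AM EC-KO libraries, against 125, 191, 71.6 and 102 FPKM in WT. *Cdkn1b*, the inhibitor p27, was at 5.39, 4.86 and 5.33 FPKM in the AM EC-KO libraries, against 5.71, 4.13, 8.34 and 8.47 FPKM in WT. The genotypes overlapped for both inhibitors. Of 20 mitotic genes, 7 were above 0 and 13 below, with a median of −0.05. *Bub1b*, of the spindle checkpoint, had a log2 fold change of −0.29 (SE 0.32), and *Kif20a*, a kinesin of cytokinesis, is listed at 0 in WT c and was at 12.2 to 29.4 FPKM elsewhere.

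Among the marker lists 0 genes passed FDR 0.1 in limma, and at an unadjusted p under 0.05 there were 1 vascular and 1 lymphatic marker lower and 1 smooth muscle marker higher, at a background of 1.42% lower and 1.65% higher of all tested genes. The log2 fold change was above 0 for 2 and below 0 for 13 vascular endothelial markers, for 2 and 4 lymphatic, 6 and 3 fibroblast, 7 and 3 smooth muscle and pericyte, 5 and 2 myeloid and 3 and 1 epithelial and mesothelial markers. *Egfl7*, a secreted endothelial factor, had a log2 fold change of −0.33 (SE 0.13, unadjusted p = 0.036 and adjusted p = 0.954 in limma), and *Cdh5* of −0.30 (SE 0.13). The lymphatic hyaluronan receptor *Lyve1* was at −1.35 (SE 0.50), the fibroblast and lymphatic marker genes *Thy1* and *Pdpn* at 0.36 (SE 0.16) and 0.53 (SE 0.51), and the smooth muscle genes *Tagln* and *Rgs5* at 0.59 (SE 0.24) and 0.22 (SE 0.15). The fibroblast gene *Dcn* was at −1.37 (SE 1.35), the myeloid genes *Fcer1g* and *Cd14* at 1.24 (SE 0.73) and −1.23 (SE 0.73), and the keratins *Krt8* and *Krt19* at 0.30 (SE 0.16) and 1.18 (SE 0.97). *Thy1* did not overlap between the genotypes, with 259 to 291 FPKM in AM EC-KO and 160 to 257 FPKM in WT, at a background of 2.91% of tested genes higher without overlap. The part of these genes in the members' values was not tested.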

How the data were processed

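RNA sequencing of MLEC was analysed in 3 AM EC-KO and 4 WT libraries, grouped by their genotype labels. The authors trimmed reads with Cutadapt, mapped them to GRCm38 with TopHat2 2.0.6 and deposited FPKM per library and per genotype; the submitters' processing notes name Cufflinks and Cuffdiff. The deposited log2 fold changes between genotypes, and the deposited p-values and q-values of expression tests and of splicing tests, are the authors' own comparisons and were not used. The deposited table has 38472 rows, of which 172 have no library values. Whether reads were counted by strand is not given in the sources used here, so reads of overlapping genes may be shared. The deposited interval spans under 5% of the gene for 23 members and at least 90% for 19, so coordinates are those of the gene with the same identifier in the GENCODE annotation of GRCm38.

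From the library FPKM, log2(FPKM + 1) was tested with limma 3.58.1 (trend, R 4.3.3) over 15604 genes (mean FPKM 0.1 or more, above 0 in 3 or more libraries), with Benjamini-Hochberg adjustment over all of them and a threshold of 0.1. Fold changes are on this scale, which understates the change of genes near or below 1 FPKM. For single genes the exact two-sided permutation test enumerated all 35 assignments of 3 and 4 libraries. Deviations of log2 FPKM used genes above 0 in every library. For the estimated depth, 70.2 to 75.3% of low values came within 0.1 of a whole read (20% by chance), so whole reads were not recovered and no count model was fitted. The code was tested on simulated data. Python 3.11.15 was used for tables and figures, with pandas 2.3.3, scipy 1.17.1 and matplotlib 3.10.9.

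The members and gene lists were chosen with earlier results of these data known. Values in every library are given, per role, for the member with the highest mean and the 2 tested members with the smallest unadjusted p, for members without overlap or past the threshold, and for members listed at 0 in some libraries; other members named are summarised or were chosen after their values were seen. Of each further list, up to 2 genes with the smallest unadjusted p are named. The alternatives were other pseudocounts, filters, scalings, moderation and array weights, a term for the library letters, subsets of the libraries and leaving out each library.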

Additional observations from a re-analysis of the deposited data

Results flagged for a closer look

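Among the 4 WT libraries, WT f lay far above the other 3 for *Mcm5* (22.4 FPKM), *Rfc4* (16.5 FPKM) and *Tk1* (35.8 FPKM), by a gap of 0.97, 0.86 and 1 of the whole range. For *Tk1* the other WT libraries are listed at 0, which can be failed estimates and fixes the gap at 1. In all, 44 members were examined in this way. Chance flags about 1 in 20 groups, but many members move together and are not separate tests. The number of such genes is thus not read against that share.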

How the results depend on the processing

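No member passed FDR 0.1 under any of the 21 alternatives, and the smallest adjusted p of a member over them was 0.271, for *Mcm7* within libraries e to g, where it is listed at 0 in the lone AM EC-KO library, which is assumed to vary like the WT ones. The count of all genes past FDR 0.1, 10 as reported, was 0 among genes above 0 in every library, 0 within libraries a to d, 0 within e to g (chosen after seeing the data), 17 with a pseudocount of 0.01 and 18 with 0.1, and 8 to 39 with a library left out, with 39 without WT a, 22 without WT c, 27 without WT e and 21 without WT f. Members with an unadjusted p under 0.05 in limma were 1 within a to d (*Rb1*) and 1 within e to g (*Mcm7*), and 0 to 1 with a library left out (*E2f1* without WT f). The members' median log2 fold change was −0.17 to 0.007 with a library left out, lowest without AM EC-KO g and above 0 only without WT f. Of 218 fold changes of 16 named members under the other alternatives, 6 changed sign: *Gins3* to 0.033 and *Uhrf1* to 0.16 within e to g, *Uhrf1* to 0.046 with a term for the letters, *Gins4* to −0.029 as TPM, and *Mcm7* to 0.050 and *Pcna* to 0.018 within a to d. With a library left out, 6 of 112 changed sign, in *Gins4* (−0.070 to 0.043), *Pcna* (−0.21 to 0.0052) and *Uhrf1* (−1.14 to 0.73). The cause of these changes of sign was not tested. The listed 0 of *Mcm7* in AM EC-KO g is absent within a to d, and those of *Uhrf1* in AM EC-KO b and WT c are absent within e to g. With a term for the letters, and without WT f (0.14), *Uhrf1* changed sign although both of its listed 0 values were kept. No paired analysis was possible because the labels give library letters and no replicate numbers shared by the genotypes. At the estimated depth, genes below 1 FPKM such as *E2f2* rest on few reads.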
